A study of Rattus norvegicus with 9 samples.

Results

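The interleukins and interleukin receptors of the rat liver are described here: the 80 protein-coding genes whose symbol starts with Il and a digit, taken by symbol alone from the 32883 genes of the deposited table, 22250 of them protein-coding. They comprise 36 secreted ligands, 37 receptor chains, 6 natural antagonists or decoys and 1 enzyme, Il4i1, whose symbol only recalls interleukin 4. An mRNA library was sequenced from the liver of each of 9 rats, all male and of the Sprague-Dawley strain. The 3 normal rats (N1, N3 and N12) received a normal diet, the 3 DEN rats (M13, M17 and M24) received the liver carcinogen diethylnitrosamine (DEN) at 0.01% by weekly intraperitoneal injection on a schedule of 16 weeks, and the 3 DEN plus PZH rats (G27, G28 and G42) received the same DEN injections together with Pien-Tze-Huang (PZH), a traditional Chinese formula. The question put to these libraries was which genes DEN changes on the way from fibrosis to hepatocellular carcinoma and which of them PZH changes in turn. Groups were taken from the first letter of each rat's name, because the treatment tag of the M rats also reads PZH. The PZH dose, the age and the week of collection of each rat are not given in the sources used here, nor is whether a nodule or the tissue around it was sampled. In the paper rats of each group were killed at several times up to week 16, and a rat killed earlier had fewer weeks of injections. Rats within a group are separate animals.

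Interleukins are secreted proteins by which leukocytes, epithelia and stroma signal to each other, and most act on receptors built from a chain that binds the ligand and a chain that signals and is shared among several ligands. Receptors of the interleukin 1 (IL-1) family signal through the adaptor MyD88 to NF-kB, while those of the interleukin 6, interleukin 10 and common gamma chain families signal through Janus kinases and STAT proteins. In the liver, interleukin 6 acting on hepatocytes is the classic inducer of the acute phase response, interleukin 1 is released by Kupffer cells, and interleukin 33 serves as an alarm signal from damaged tissue.

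Total counts per rat lay between 16115709 and 16412520 in the normal group, between 15259441 and 16641954 in the DEN group and between 14922973 and 27161496 in the DEN plus PZH group, G27 being the deepest library. Levels below are CPM, read counts relative to the library total after TMM scaling, and a floor of 3 counts corresponded to 0.125 to 0.252 CPM depending on the rat, which covers counting error only. The liver label was met by the hepatocyte markers Alb, Apoa1, Ttr, Tat, Hnf4a and Cyp2e1, whose summed level was 106378 to 114530 CPM in the normal rats, 15996 to 35007 CPM in the DEN rats and 76261 to 113143 CPM in the DEN plus PZH rats.

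In the DEN livers interleukin genes were called in both directions. The receptor chains Il2rg, Il7r, Il10ra, Il1rl1, Il17re and Il22ra1 rose, while the receptor chains Il6r, Il1r1, Il4r and Il1rap fell, together with the ligands Il1a and Il33 and the antagonist Il1rn. Of the 80 members, 41 had enough reads to be tested against the normal rats, and 24 of these (58.5%) passed an adjusted p under 0.05, 14 higher and 10 lower, where 45.8% of all 14255 genes tested passed, 25.3% higher and 20.5% lower. The median log2 fold change was 0.84 over the members tested and 0.03 over all genes tested. In bulk tissue fewer cells of a type and less RNA per cell cannot be told apart, which holds for every value below. Scaling to library totals in place of TMM factors raised the median of all genes by 0.87 on the log2 scale, and with it the split of the calls became 27 higher and 3 lower (90.0% higher, against 58.3% with TMM). The direction of 4 tested members turned with that scaling, of which Il17rc was called and Il6st, Il17ra and Il18bp were not.

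**Figure D1:**
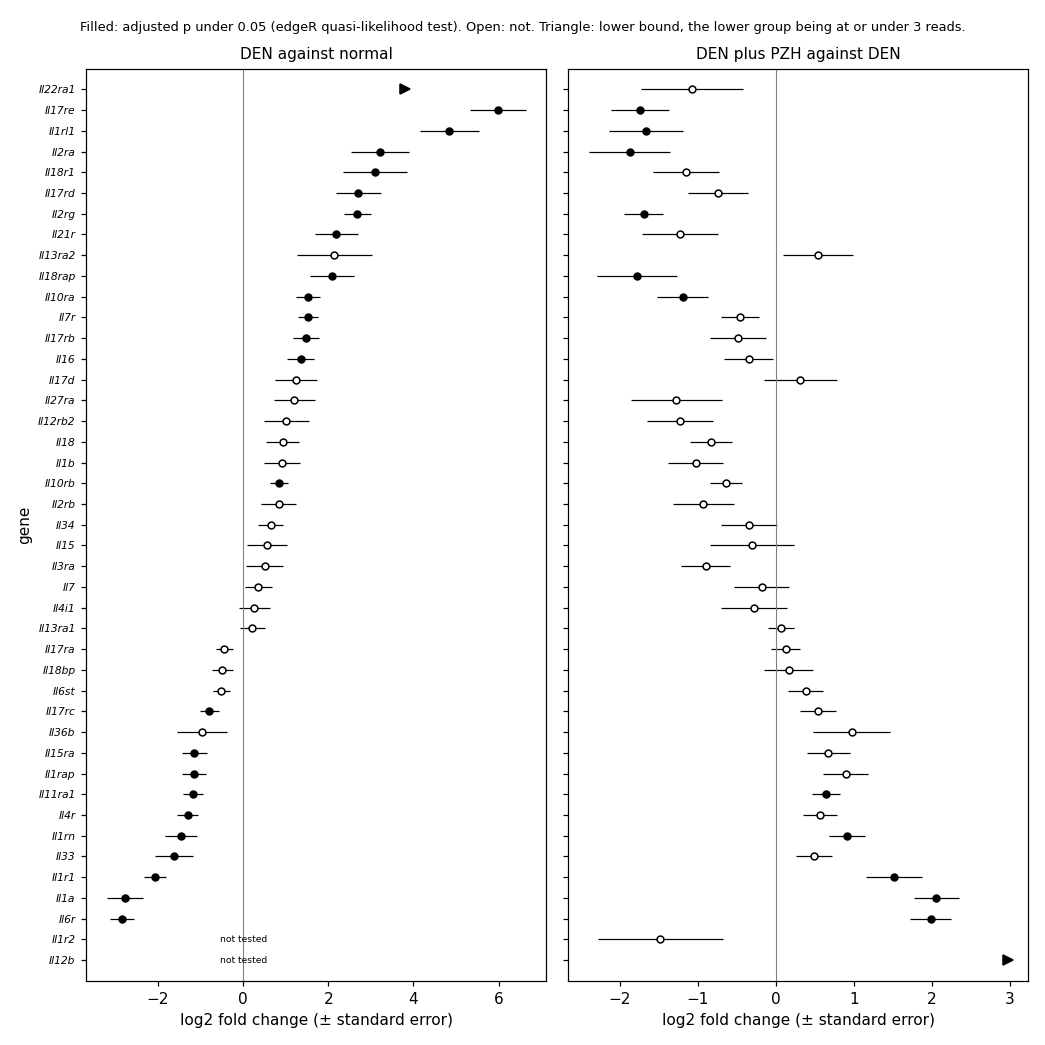
Log2 fold change (x axis, with its standard error) of each interleukin gene tested in DEN against normal rats (left) and in DEN plus PZH against DEN rats (right), 3 rats in each group; filled points passed (adjusted p under 0.05, edgeR) and triangles are lower bounds. Of 41 members on the left 14 passed as higher and 10 as lower, and of 43 on the right 6 passed as higher and 6 as lower; the side of Il17rc, Il6st, Il17ra and Il18bp on the left turned when library totals replaced TMM scaling.

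Receptor chains carried most of the calls. Of 37 receptor chains 27 were tested and 20 passed, 13 higher and 7 lower. Of 36 ligands only 10 were tested and 3 passed, Il16 higher and Il1a and Il33 lower. Over all genes tested 45.8% passed, a share that stands beside the count of every family and list in DEN against normal below. The part of read depth in the contrast of ligands and receptors was not tested. Of the 3 antagonists or decoys tested 1 passed, Il1rn, which was lower. Il4i1 did not pass (log2 fold change 0.26, adjusted p = 0.59). A member whose reads lay in 1 group alone could enter the test only by differing, and 6 of the 41 (Il17d, Il17rd, Il17re, Il1rl1, Il22ra1 and Il27ra) had under 10 counts in every normal rat, 4 of them called. Among the other 35 members 20 passed. These 20 are not all free of that limit, since Il18r1, Il18rap and Il2ra reached 10 counts in only some normal rats. Their calls were lost as well when at least 10 counts were required in every rat.

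A large part of the family was silent at this depth. No read was counted in any of the 9 rats for 16 members, 15 of them ligands: Il2, Il4, Il5, Il9, Il13, Il17c, Il17f, Il19, Il20, Il21, Il22, Il25, Il36a, Il36g and Il1f10. The receptor-like gene Il1rapl2 was the other one. A further 21 members had reads but too few for any test, 3 of them with at most 3 counts in every rat. Each library held a read of 43 to 60 of the 80 members, 43 to 49 in the normal rats, 57 to 60 in the DEN rats and 46 to 57 in the DEN plus PZH rats. None of these zeros shows absence, since 3 reads is the limit a count of 0 allows.

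Compared per length, as FPKM (fragments scaled by transcript length and library size), the family in normal liver was led by the IL-6 receptor pair. Il6st, the signalling chain gp130, stood at 61.7 ± 5.60 FPKM (SD, n = 3) and Il6r, the ligand-binding chain, at 53.5 ± 12.7 FPKM, followed by Il33 at 50.7 ± 31.7, Il1rn at 33.4 ± 19.0, Il1r1 at 29.6 ± 7.88 and Il4r at 21.4 ± 7.11 FPKM. Neighbours in this order overlapped between rats, so the order among them is not resolved. In the DEN rats Il6st was at 77.8 ± 10.003 FPKM, with every rat above every rat of Il33 at 30.8 ± 10.7 FPKM, the next in order. Il6r stood in place 11 there, at 13.2 ± 1.91 FPKM, and in place 2 in the DEN plus PZH rats, at 33.2 ± 4.78 FPKM. Of the FPKM summed over all members, Il6r made up 11.8% to 17.2% in the normal rats, 2.34% to 4.06% in the DEN rats and 8.45% to 11.7% in the DEN plus PZH rats. FPKM carries no TMM scaling, and Il6st, higher in the DEN than in the normal rats by mean FPKM, was lower by mean CPM.

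**Figure D2:**
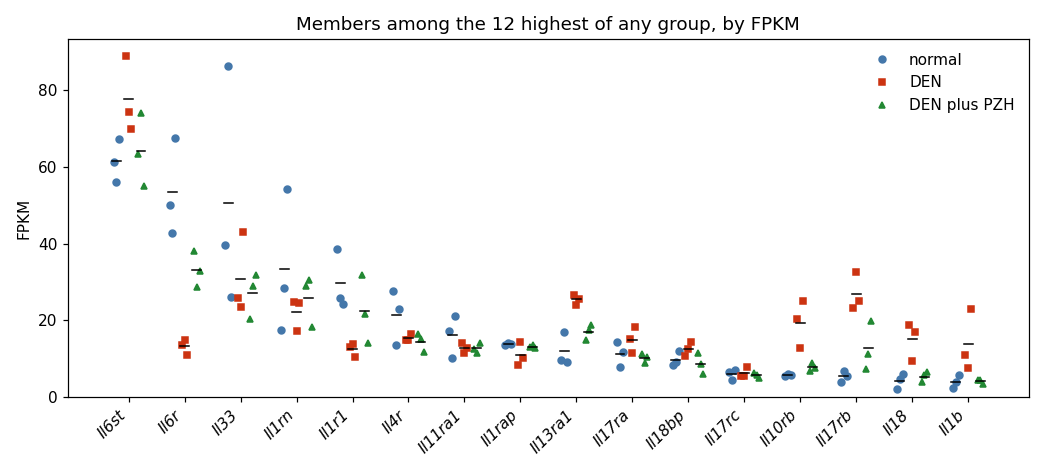
FPKM (y axis, linear) in each rat of the members that were among the 12 highest of any group, with a bar at each group mean of 3 rats. Il6st had the highest group mean in all 3 groups, though it overlapped Il6r in the normal rats, and Il6r stood at 42.8 to 67.5 FPKM in the normal rats but at 11.05 to 14.8 FPKM in the DEN rats; FPKM was scaled by the authors and not with TMM factors.

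The 3 DEN rats differed among themselves. Of the 14 members called higher than in normal liver, M24 had the highest level of the 3 in 10 and M17 the lowest in 11, and of the 10 members called lower, M17 had the highest level in 7 while M13 or M24 had the lowest in 9. Marker genes of other cells differed among these rats too, and not all in 1 order. Ptprc, the pan-leukocyte antigen CD45, was at 78.0, 58.7 and 121 CPM in M13, M17 and M24, and the summed hepatocyte markers were at 23070, 35007 and 15996 CPM. The summed macrophage markers were highest in M13 and lowest in M24 (542, 462 and 418 CPM), and the summed neutrophil markers were highest in M13 and lowest in M17 (30.7, 15.5 and 25.1 CPM). The part of these differences in the interleukin values was not tested.

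The promoters of 4 members whose levels moved far in the DEN livers are shown so that their upstream sequence can be read beside the values: Il6r, Il1r1 and Il1a, which fell, and Il1rl1, which rose. Each is the 250 bases before the transcription start in the RefSeq promoter table of assembly GRCr8, 5′ to 3′ on the strand of the gene, and capitals mark a match to a searched motif. The windows are chr2:177645210-177645459 (minus strand) for Il6r, chr9:50034133-50034382 (plus strand) for Il1r1, chr3:136990018-136990267 (minus strand) for Il1a and chr9:50203388-50203637 (plus strand) for Il1rl1.
Il6r: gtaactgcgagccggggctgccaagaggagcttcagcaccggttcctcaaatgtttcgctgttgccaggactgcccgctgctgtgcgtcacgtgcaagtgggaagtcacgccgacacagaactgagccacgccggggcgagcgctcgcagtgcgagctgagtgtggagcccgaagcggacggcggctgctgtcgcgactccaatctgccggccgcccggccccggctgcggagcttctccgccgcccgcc
Il1r1: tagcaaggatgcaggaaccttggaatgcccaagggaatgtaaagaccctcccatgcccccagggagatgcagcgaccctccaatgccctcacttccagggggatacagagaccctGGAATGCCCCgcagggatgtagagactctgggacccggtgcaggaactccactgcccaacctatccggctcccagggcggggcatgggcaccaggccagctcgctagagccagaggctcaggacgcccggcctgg
Il1a: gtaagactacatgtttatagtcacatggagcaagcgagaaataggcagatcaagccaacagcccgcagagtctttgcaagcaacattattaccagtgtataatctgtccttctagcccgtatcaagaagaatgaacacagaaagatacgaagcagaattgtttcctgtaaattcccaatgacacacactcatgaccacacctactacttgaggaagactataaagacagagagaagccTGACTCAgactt
Il1rl1: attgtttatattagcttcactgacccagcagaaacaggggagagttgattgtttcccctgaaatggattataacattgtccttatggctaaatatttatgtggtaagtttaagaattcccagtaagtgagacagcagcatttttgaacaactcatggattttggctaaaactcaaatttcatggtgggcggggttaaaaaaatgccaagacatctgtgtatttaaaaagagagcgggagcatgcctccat
The letters searched, on both strands, were TTCNNNGAA (STAT), TGANTCA (AP-1) and the NF-kB consensus. Il1a held an AP-1 match that starts 12 bases before the transcription start, and Il1r1 held an NF-kB match that starts 135 bases before it. Neither Il6r nor Il1rl1 held a match.

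At least 1 window of 300 bases (250 before and 50 after the start) was found by symbol for 63 of the 80 members, and Il17re was among the 17 without one. Il4i1 had 5 windows and Il12rb2, Il1rap and Il33 had 2 each, and a member was counted if any of its windows held a match. Of the 63 members 12.7% held the STAT letters, 11.1% the AP-1 letters and 12.7% the NF-kB consensus, against 8.9%, 7.3% and 4.2% of all 33469 windows. Shares of members and of single windows are unlike measures, and Il4i1, Il12rb2 and Il1rap were among the members with the NF-kB consensus. Of the 12 members with a window that were higher in the DEN rats 2, 1 and 0 held the STAT, AP-1 and NF-kB letters. Of the 9 that were lower, Il1rap among them, 0, 2 and 3 did. With members this few the shares are a description, and a match is not a binding site.

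The comparison of DEN plus PZH with DEN rats asks which of these genes differ when PZH is given along with the carcinogen. It shares its DEN rats with the comparison above, so the values of both comparisons are given side by side below and not as independent evidence. Of 43 members tested 12 passed (27.9%), where 19.1% of 14272 genes tested passed, 8.72% higher and 10.3% lower. Il6r, Il1r1, Il11ra1, Il1a, Il12b and Il1rn were higher, and Il2rg, Il2ra, Il10ra, Il17re, Il1rl1 and Il18rap were lower. Il12b had under 10 counts in every DEN rat and could enter the test only by differing. Among the other 42 members 11 passed. The median log2 fold change was -0.34 over the members tested and 0.01 over all genes tested. Library totals in place of TMM factors moved the median of all genes by -0.67 on the log2 scale and gave 24 calls, 4 higher and 20 lower, and the direction of 10 members turned, Il11ra1 the 1 called member among them. Single rats mattered as well, with 3 calls without M13, 4 without M24, 5 without G28, 6 without G42, 7 without G27 and 17 without M17. Over all genes these fits gave 271, 725, 1178, 1221, 2213 and 3319 calls in the same order, against 2722 with all rats. Il6r, Il1a and Il2rg passed under each alternative run, and the other 9 calls were lost without M13. Il11ra1, Il18rap and Il2ra lost theirs also without M24, without G27, without G28 and without G42.

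Against the normal rats the DEN plus PZH rats differed in 1 of 40 tested members at an adjusted p under 0.05, Il17re, where 5.21% of 13348 genes tested passed, 4.07% higher and 1.15% lower. Il17re, Il17d, Il17rd and Il1rl1 had under 10 counts in every normal rat, and such members could enter the test only by differing. Among the other 36 members 0 passed. The Il17re call was lost without N1 or without G28, when 0 members passed and 10 and 9 had an unadjusted p under 0.05. Further, 6 members passed without G27, and DESeq2 called 5, where calls over all genes went from 696 to 1326 and 1320. Groups that do not overlap, every rat of one above every rat of the other, were found for 31 of 41 members in DEN against normal (58.8% of all genes), for 26 of 43 in DEN plus PZH against DEN (40.8% of all genes) and for 15 of 40 in DEN plus PZH against normal (24.2% of all genes). The study called genes at log2 fold changes beyond 2 in size and an unadjusted P under 0.001. By these thresholds 8 members passed in DEN against normal (12.3% of all genes, 8.81% higher and 3.49% lower), Il17re, Il2rg, Il1rl1, Il22ra1 and Il17rd higher and Il6r, Il1r1 and Il1a lower. Of the members higher, Il17re, Il1rl1, Il22ra1 and Il17rd had under 10 counts in every normal rat and could enter the test only by differing. In DEN plus PZH against DEN 2 members passed these thresholds, Il1a and Il12b, both higher (2.43% of all genes, 1.08% higher), and neither passed them without M13 or without M24. Il12b could enter that comparison only by differing. In DEN plus PZH against normal Il17re alone passed the study thresholds (2.32% of all genes), and it too could enter only by differing.

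**Figure D3:**
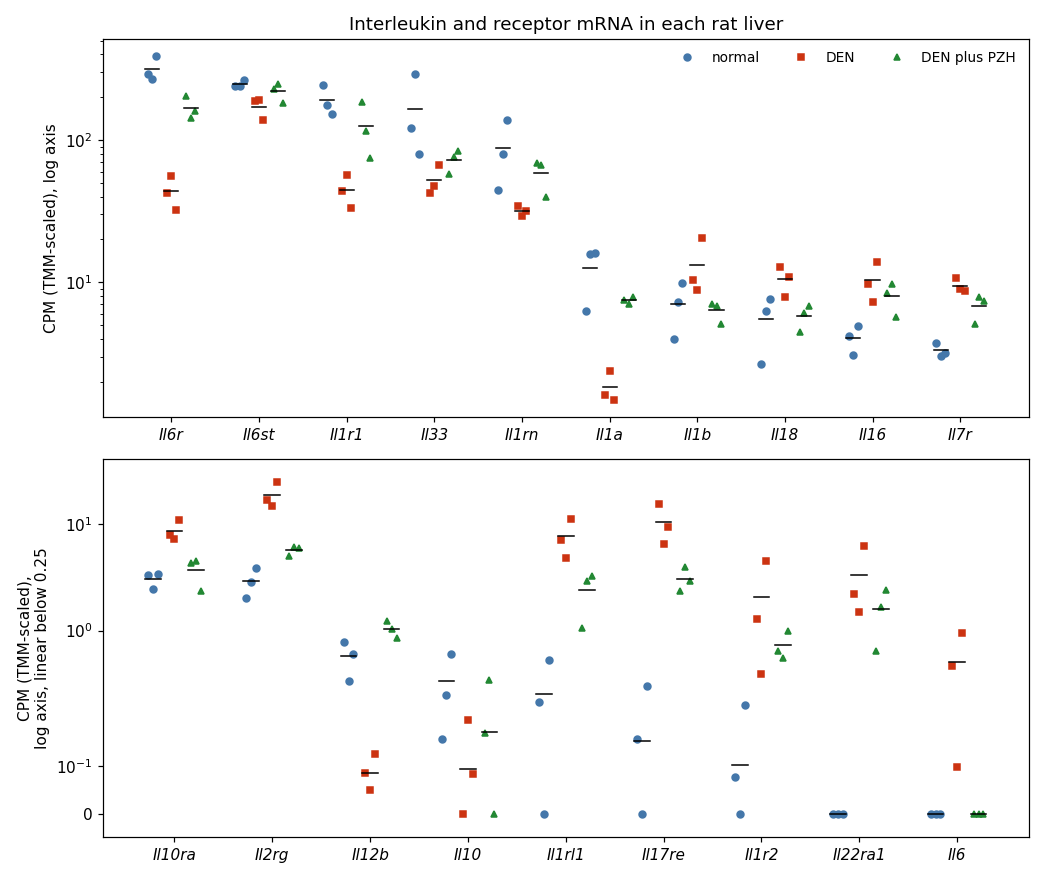
CPM (y axis, TMM-scaled, log axis, linear below 0.25 in the lower panel) in each rat for the 19 members described rat by rat, with a bar at each group mean of 3 rats. The DEN rats lie below all normal rats for Il6r, Il6st, Il1r1, Il33, Il1rn, Il1a and Il12b. They lie above all normal rats for Il7r, Il10ra, Il2rg, Il16, Il18, Il1rl1, Il17re, Il1r2, Il22ra1 and Il6, the last with only 2 counts in M17. Il1b and Il10 overlap.

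Interleukin 6 signals through its binding chain Il6r and the shared chain Il6st. Il6 itself had 11, 2 and 23 counts in M13, M17 and M24 and no count in any normal or DEN plus PZH rat. Its mean level in the DEN rats was thus at least 2.13-fold higher than the 3-count floor of the normal group and at least 2.77-fold above that of the DEN plus PZH group, and it was too low for the main test. Without M24 these bounds were 1.19-fold and 1.54-fold. When the filter on low counts was dropped, Il6 passed in both comparisons (adjusted p = 0.033 and 0.049).

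Il6r (chromosome 2, 189205701 to 189254628 in the coordinates of the authors' file, whose build is not stated) stood at 289.9, 269 and 389 CPM in N1, N3 and N12, at 42.2, 56.0 and 32.3 CPM in M13, M17 and M24, and at 203, 142 and 161 CPM in G27, G28 and G42. The 3 groups did not overlap. Il6r fell in the DEN rats by a log2 fold change of -2.85 ± 0.28 (SE, n = 3 and 3, adjusted p = 0.00023) and was higher in the DEN plus PZH rats than in the DEN rats by 1.98 ± 0.26 (adjusted p = 0.0089). Against normal rats the DEN plus PZH rats were at -0.90 ± 0.23 (adjusted p = 0.055). Its promoter, printed above, held none of the motifs searched.

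Il6st (chromosome 2, 44289393 to 44314944) was at 241, 239 and 263 CPM in the normal rats, 187, 191 and 138 CPM in the DEN rats and 229, 249 and 182 CPM in the DEN plus PZH rats. The DEN rats lay below the normal rats and overlapped none of them, but neither comparison passed (log2 fold change -0.51 ± 0.21, adjusted p = 0.075, and 0.38 ± 0.22, adjusted p = 0.26), and both signs turned with library totals (0.34 and -0.28). The fall with DEN passed with DESeq2 (0.032) and without M17 (0.048). Reads of Il6st over reads of Il6r in the same library, a ratio free of library scaling, were 0.830, 0.889 and 0.676 in the normal rats, 4.42, 3.41 and 4.29 in the DEN rats and 1.12, 1.75 and 1.13 in the DEN plus PZH rats. The pair was chosen after its values were seen, so no test is attached.

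Il11ra1, the binding chain for interleukin 11, fell from 24.1 to 45.5 CPM in the normal rats to 14.0 to 16.3 CPM in the DEN rats (log2 fold change -1.18 ± 0.24, adjusted p = 0.0048). It was at 21.2 to 25.8 CPM in the DEN plus PZH rats, higher than in the DEN rats with TMM scaling (0.65 ± 0.18, adjusted p = 0.039), a sign that turned with library totals, which also ended the call of its fall with DEN. The PZH call was lost without any 1 of M13, M17, M24, G27, G28 and G42. Among cytokines and receptors that share chains or signalling with these families but carry other names, Clcf1, Csf2rb, Ebi3, Ifngr1, Ifngr2, Lif and Osmr rose in DEN against normal and Cntfr fell.

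Osmr and Cntfr went opposite ways in both comparisons. Osmr, which pairs with gp130 for oncostatin M, was at 3.75 to 4.73 CPM in the normal rats, 46.0 to 54.9 CPM in the DEN rats and 17.5 to 29.3 CPM in the DEN plus PZH rats (DEN against normal 3.53 ± 0.19, adjusted p = 2.1e-05, DEN plus PZH against DEN -1.04 ± 0.21, adjusted p = 0.018). Cntfr, the binding chain for ciliary neurotrophic factor, had 61, 40 and 90 counts in the normal rats, 4, 6 and 6 in the DEN rats and 96, 54 and 18 in the DEN plus PZH rats. It fell in the DEN rats (-4.34 ± 0.47, adjusted p = 0.00033) and was higher with PZH (3.68 ± 0.59, adjusted p = 0.011). With PZH, Csf2rb and Ifngr1 were also lower than in the DEN rats.

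**Figure D4:**
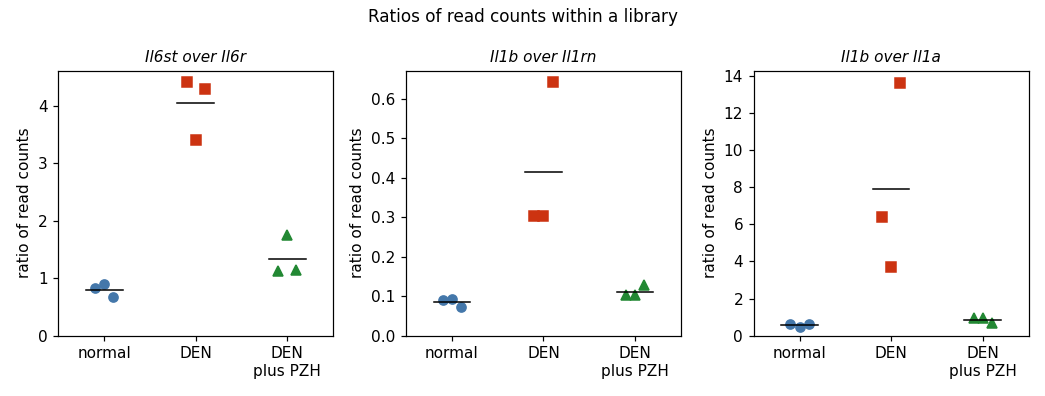
Ratio of read counts of 2 members within each library (y axis, linear, from 0), one point per rat with a bar at the mean of 3 rats. Il6st over Il6r, Il1b over Il1rn and Il1b over Il1a were each higher in all 3 DEN rats than in any normal or DEN plus PZH rat, and the pairs were chosen after their values were seen.

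In the IL-1 family Il1a, Il1rn and Il1r1 fell with DEN and were higher with PZH than with DEN alone, while Il1b passed in neither comparison. Il1a and Il1b encode the agonists interleukin 1 alpha and beta, Il1rn encodes the receptor antagonist, Il1r1 and Il1rap form the signalling receptor, and Il1r2 is a decoy that binds the ligand without signalling. Il1a was at 6.25, 15.7 and 16.0 CPM in the normal rats, 1.61, 2.38 and 1.499 CPM in the DEN rats and 7.55, 7.03 and 7.83 CPM in the DEN plus PZH rats. The DEN rats lay below both other groups without overlap. Il1a fell with DEN (-2.78 ± 0.42, adjusted p = 0.0012) and was higher with PZH than with DEN alone (2.05 ± 0.29, adjusted p = 0.0092).

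Il1b lies 40176 bases from Il1a on chromosome 3 in the authors' file, and its values differed from those of its neighbour. It was at 3.98, 7.30 and 9.92 CPM in the normal rats, 10.3, 8.77 and 20.4 CPM in the DEN rats and 7.08, 6.82 and 5.13 CPM in the DEN plus PZH rats. The normal and DEN groups overlapped through N12 and M17. Neither comparison passed with TMM scaling (0.91 ± 0.42, adjusted p = 0.11, and -1.03 ± 0.35, adjusted p = 0.075), whereas DESeq2 and edgeR's exact test put the PZH comparison past the threshold (adjusted p = 0.036 and 0.037), as did leaving out M17 (0.036) and library totals (0.0098). Library totals also put DEN against normal past it (1.82, adjusted p = 0.0063).

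Il1rn was at 44.5, 79.6 and 139 CPM in the normal rats, 34.1, 29.0 and 31.8 CPM in the DEN rats and 68.4, 67.0 and 39.7 CPM in the DEN plus PZH rats. All DEN rats lay below all others. Il1rn fell in the DEN rats (-1.46 ± 0.37, adjusted p = 0.012, and 0.18 with library totals) and was higher with PZH (0.91 ± 0.24, adjusted p = 0.033). The PZH call was lost without M13 (0.10), M17 (0.067), M24 (0.10), G27 (0.069) or G28 (0.10), with all 9 rats in one fit (0.11) and with library totals (0.49). Within a library Il1b had 0.0895, 0.0917 and 0.0714 reads for each read of Il1rn in the normal rats, 0.303, 0.302 and 0.643 in the DEN rats and 0.104, 0.102 and 0.129 in the DEN plus PZH rats.

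The signalling receptor Il1r1 was at 243, 177 and 152 CPM in the normal rats, 43.9, 57.2 and 33.3 CPM in the DEN rats and 185, 116 and 74.5 CPM in the DEN plus PZH rats. Every DEN rat lay below every other rat, and G27, the deepest library, held the highest value of the PZH group. Il1r1 fell with DEN (-2.07 ± 0.27, adjusted p = 0.00063) and was higher with PZH (1.51 ± 0.36, adjusted p = 0.025), a call lost without M13 (0.097), M24 (0.089) or G28 (0.061). Its partner chain Il1rap fell as well in the DEN rats, from 60.9 to 67.6 CPM in the normal rats to 19.7 to 41.7 CPM (-1.16 ± 0.28, adjusted p = 0.0098, a call lost with library totals), and was at 47.7 to 53.8 CPM with PZH (0.90 ± 0.28, adjusted p = 0.061).

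The decoy Il1r2 had 1, 0 and 3 counts in the normal rats, 30, 8 and 108 in the DEN rats and 15, 8 and 14 in the DEN plus PZH rats. The DEN mean was at least 8.63-fold and the DEN plus PZH mean at least 3.07-fold the normal floor, and neither difference entered the main test. The DEN and DEN plus PZH rats overlapped (-1.48 ± 0.80, adjusted p = 0.23), with M24 alone setting most of the DEN mean of 2.06 ± 2.16 CPM, and without M24 the DEN bound was at least 3.51-fold.

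6 genes of this receptor family lie next to each other on chromosome 9, within 417512 bases in the authors' file: Il1r2, Il1r1, Il1rl2, Il1rl1, Il18r1 and Il18rap, in that order. Il1r1 fell in the DEN rats, while Il1rl1, Il18r1 and Il18rap rose and Il1r2 and Il1rl2 were too low for the test. With PZH, Il1r1 was higher and Il1rl1 and Il18rap were lower than in the DEN rats. Il1rl2, the receptor for interleukin 36, had at most 2 counts in a normal rat and 9, 6 and 22 in the DEN rats.

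Il1rl1 encodes ST2, the receptor for interleukin 33, borne by mast cells, regulatory T cells and group 2 innate lymphoid cells. It had 3, 0 and 7 counts in the normal rats, against 165, 96 and 268 in the DEN rats and 25, 42 and 46 in the DEN plus PZH rats, or 0.256 ± 0.268, 7.64 ± 3.25 and 2.42 ± 1.19 CPM. The 3 groups did not overlap. The rise with DEN passed (4.85 ± 0.70, adjusted p = 0.0011), and Il1rl1 was lower with PZH than with DEN alone (-1.66 ± 0.48, adjusted p = 0.046). That last call was lost without M13 (0.11), M24 (0.16), G27 (0.075), G28 (0.090) or G42 (0.071) and with all 9 rats in one fit (0.067).

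The ligand of that receptor, Il33, was at 122, 289 and 79.6 CPM in the normal rats, 42.7, 47.3 and 66.9 CPM in the DEN rats and 57.6, 76.6 and 83.0 CPM in the DEN plus PZH rats. N3 stood far above the other 2 normal rats, and the DEN rats lay below all normal rats. Il33 fell with DEN (-1.63 ± 0.45, adjusted p = 0.017), a call lost without M13 (0.059) and with library totals (0.15), and its difference between DEN plus PZH and DEN did not pass (0.49 ± 0.23, adjusted p = 0.17) and turned with library totals (-0.19). Mast cell markers stood beside these values: Cpa3, Fcer1a and Ms4a2 rose and Hdc fell in the DEN rats among the 5 tested with Kit, none of the 5 passed in DEN plus PZH against DEN by edgeR, by DESeq2 or at an unadjusted p under 0.05, and their summed level was 24.1 to 29.3, 42.2 to 50.9 and 25.2 to 61.5 CPM in the normal, DEN and DEN plus PZH rats. Their part in the Il1rl1 result was not tested.

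Interleukin 18 acts through Il18r1 and Il18rap and is held in check by the soluble binding protein Il18bp. Il18 was at 2.65, 6.29 and 7.63 CPM in the normal rats, 12.8, 7.83 and 10.8 CPM in the DEN rats and 4.48, 6.12 and 6.84 CPM in the DEN plus PZH rats. All DEN rats lay above all others, yet neither comparison passed (0.93 ± 0.39, adjusted p = 0.079, and -0.83 ± 0.27, adjusted p = 0.065). The PZH comparison passed with DESeq2 (0.039), edgeR's exact test (0.041), library totals (0.0092) and without M17 (0.039), and library totals also put DEN against normal past the threshold (1.83, adjusted p = 0.0039). Il18r1 and Il18rap rose with DEN (3.10 ± 0.75, adjusted p = 0.010, and 2.08 ± 0.52, adjusted p = 0.012), both calls being lost when at least 10 counts were required in every rat. Il18rap was lower with PZH (-1.78 ± 0.51, adjusted p = 0.046, lost without any 1 rat but M17), whereas Il18r1 did not pass there (-1.15 ± 0.43, adjusted p = 0.095). Il18bp was at 9.68 to 13.9 CPM in the normal, 6.63 to 9.71 CPM in the DEN and 6.05 to 12.5 CPM in the DEN plus PZH rats and passed in neither comparison.

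Both pro-interleukin 1 beta and pro-interleukin 18 are cleaved by caspase 1 in inflammasomes. Of 7 inflammasome genes tested 6 rose in the DEN rats (Aim2, Casp1, Casp4, Nlrc4, Nlrp3 and Pycard) and 1 fell (Gsdmd, whose sign turned with library totals). Over all genes tested 25.3% passed as higher and 20.5% as lower. Nlrc4, a sensor of bacterial proteins, was at 0.755 to 3.13 CPM in the normal rats, 9.76 to 31.6 CPM in the DEN rats and 3.37 to 5.56 CPM in the DEN plus PZH rats (3.44 ± 0.56, adjusted p = 0.0017, and -2.14 ± 0.42, adjusted p = 0.016). Nlrp3 rose with DEN (1.03 ± 0.27, adjusted p = 0.014) and was lower with PZH (-1.07 ± 0.24, adjusted p = 0.022), and the other 5 did not pass in the PZH comparison, where library totals put Casp1, Casp4 and Pycard past the threshold as lower.

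Downstream of the IL-1 receptors, 11 adaptors and kinases were tested. In the DEN rats 3 fell and none rose, with edgeR, with DESeq2 or at an unadjusted p under 0.05, but library totals turned Irak2, Irak3, Irak4 and Tab2 to higher and past the threshold, put Map3k7 and Tab1 past it as higher, and ended the calls of Myd88 (-0.20) and Tollip (-0.04), so that Sigirr alone was called lower. Sigirr, a receptor-like inhibitor of this pathway, fell by 1.94 ± 0.18 (adjusted p = 0.00017), the adaptor Myd88 fell by 1.05 ± 0.17 (adjusted p = 0.0019) and the adaptor Tollip fell by 0.89 ± 0.19 (adjusted p = 0.0053), all on the log2 scale. Sigirr and Tollip were higher with PZH than with DEN alone (1.27 ± 0.22, adjusted p = 0.013, and 0.86 ± 0.19, adjusted p = 0.021), where library totals ended the Tollip call (0.22) and put Irak3, Irak4 and Tab1 past the threshold as lower. Of 10 NF-kB subunits and inhibitors 4 rose (Nfkb1, Nfkbie, Relb and Tnfaip3) and 2 fell (Nfkbib and Nfkbiz) with DEN, and Nfkbie alone passed with PZH, where it was lower (-1.01 ± 0.24, adjusted p = 0.027) and DESeq2 called 2 lower. With library totals the fall of Nfkbib was not called (-0.18), Rela turned to higher and passed (0.63), Nfkb2 and Rel also passed as higher, and with PZH Nfkb1, Nfkb2, Rela, Relb and Tnfaip3 passed as lower. Beside both lists, 45.8% of all genes tested passed with DEN and 19.1% with PZH under TMM scaling.

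The common gamma chain Il2rg is shared by the receptors for interleukins 2, 4, 7, 9, 15 and 21 and is a mark of lymphocytes and other leukocytes. It was at 2.03, 2.85 and 3.89 CPM in the normal rats, 16.7, 14.8 and 24.4 CPM in the DEN rats and 4.95, 6.12 and 5.98 CPM in the DEN plus PZH rats. The groups did not overlap. Il2rg rose with DEN (2.68 ± 0.32, adjusted p = 0.00047) and was lower with PZH than with DEN alone (-1.69 ± 0.25, adjusted p = 0.0098).

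Of the 9 tested members of that family 6 passed in the DEN rats, 4 higher and 2 lower, where 45.8% of all genes tested passed. Il7r, which marks naive and memory T cells, was at 3.75, 3.02 and 3.21 CPM in the normal rats, 10.7, 8.96 and 8.74 CPM in the DEN rats and 5.12, 7.86 and 7.41 CPM in the DEN plus PZH rats. It rose with DEN (1.52 ± 0.24, adjusted p = 0.0015), and its difference between DEN plus PZH and DEN did not pass (-0.46 ± 0.24, adjusted p = 0.21, but 0.017 with library totals). Il2ra, the high-affinity chain CD25, rose (3.21 ± 0.68, adjusted p = 0.0055, lost when at least 10 counts were required in every rat) and was lower with PZH (-1.87 ± 0.52, adjusted p = 0.040, lost without any 1 rat but M17). Il21r also rose (2.18 ± 0.51, adjusted p = 0.0083), while the binding chains Il4r and Il15ra fell with DEN (-1.31 ± 0.24, adjusted p = 0.0033, and -1.15 ± 0.29, adjusted p = 0.012), and none of these 3 passed with PZH. The calls of Il4r and Il15ra were lost with library totals, and that of Il15ra also without M13.

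Some neighbours in the genome went opposite ways. Il4r and Il21r lie 29360 bases apart on chromosome 1 in the authors' file, and Il15ra and Il2ra 17332 bases apart on chromosome 17. In each pair the first fell and the second rose in the DEN rats. The ligands of the family were mostly silent: Il2, Il4, Il9 and Il21 had no reads, and Il7 and Il15 passed in neither comparison, at 3.05 to 4.14 and 0.916 to 2.18 CPM in the normal rats, 3.61 to 5.91 and 1.49 to 2.62 CPM in the DEN rats.

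Janus kinases and STATs carry the signals of these receptors, and SOCS and PIAS inhibitors restrain those signals. For comparison, 45.8% of all genes tested passed with DEN and 19.1% with PZH. Of 10 kinases and STATs tested Jak2 and Stat6 rose with DEN, while Stat2 and Stat5b fell with TMM scaling and turned with library totals, and with PZH none of the 10 passed with edgeR or with DESeq2, while 2 were higher and 1 lower at an unadjusted p under 0.05. Library totals turned Jak1 and Stat4 to higher and past the threshold with DEN, put Jak3 and Stat5a past it as higher, and put Jak2, Jak3, Stat4, Stat5a and Stat6 past it as lower with PZH. Of 10 SOCS and PIAS inhibitors Cish, Socs1 and Socs5 rose with DEN. With PZH none of them passed, 1 being higher and 1 lower at an unadjusted p under 0.05, and DESeq2 called 1 in each direction. Library totals put Socs4, Socs6, Pias1 and Pias3 past the threshold as higher with DEN, and Socs1, Socs6 and Pias3 past it as lower with PZH. Cish, which interleukin 2 and STAT5 induce, was at 3.05 to 4.22 CPM in the normal rats, 7.91 to 12.96 CPM in the DEN rats and 67.4, 9.95 and 12.9 CPM in G27, G28 and G42, so that its mean in the PZH group rested mostly on G27.

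Leukocyte markers stood beside the common gamma chain genes. All 5 tested T cell markers of 7 listed (Cd2, Cd3e, Cd3g, Cd4 and Cd8a) rose in the DEN rats. The summed level of the list was 23.4 to 46.4, 78.5 to 125 and 37.8 to 45.6 CPM in the normal, DEN and DEN plus PZH rats. Cd4 made up most of that sum, with means of 29.9, 78.1 and 35.1 CPM, while Cd3e had means of 0.785, 7.08 and 1.15 CPM. With PZH Cd4 alone passed, as lower, where DESeq2 called 2 lower and 3 were lower at an unadjusted p under 0.05. Library totals put Cd2, Cd3e, Cd3g and Cd8a past the threshold as lower with PZH too. Ptprc was at 19.6 to 30.7, 58.7 to 121 and 34.7 to 42.9 CPM in the 3 groups, rising with DEN (1.75 ± 0.30, adjusted p = 0.0021) and lower with PZH (-1.14). None of 5 tested NK cell markers passed in DEN against normal by edgeR or DESeq2, 1 of them having an unadjusted p under 0.05. Library totals put Nkg7 past the threshold as higher with DEN. Their part in the Il2rg, Il2ra and Il7r results was not tested.

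**Figure D5:**
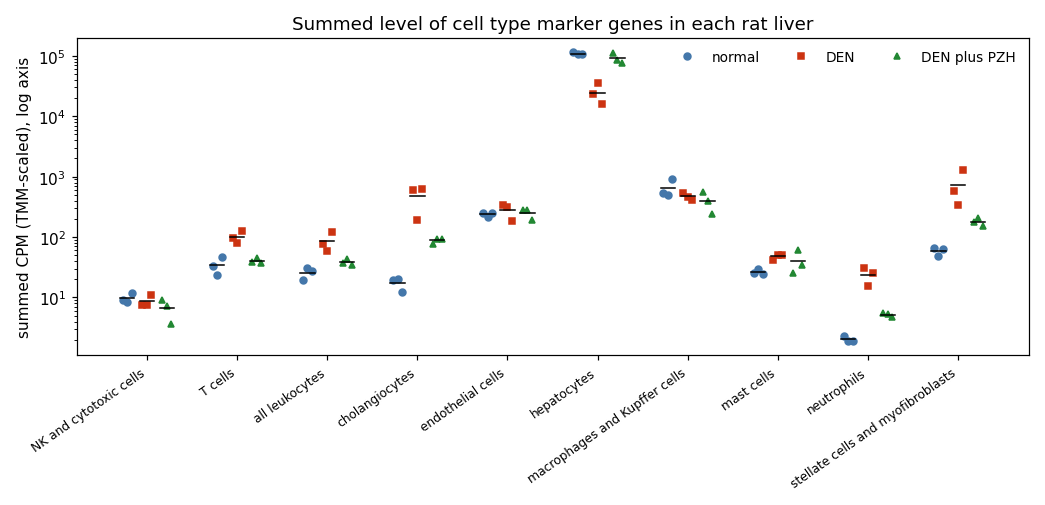
Summed CPM (y axis, log axis) of 10 lists of cell type marker genes in each rat, with a bar at each group mean of 3 rats. Summed hepatocyte markers lie at 15996 to 35007 in the DEN rats and at 76261 or above in all other rats, while cholangiocyte, neutrophil, stellate cell and T cell sums are higher in all DEN rats than in any other rat. The T cell sum is mostly Cd4.

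The IL-10 family acts on epithelia and macrophages. All 3 of its tested members, each a receptor chain, rose with DEN, where 25.3% of all genes tested passed as higher. Of these, Il22ra1 had under 10 counts in every normal rat and could enter that test only by differing. Il10ra, the chain that binds interleukin 10, was at 3.28, 2.43 and 3.36 CPM in the normal rats, 7.86, 7.13 and 10.9 CPM in the DEN rats and 4.27, 4.45 and 2.35 CPM in the DEN plus PZH rats. The DEN rats lay above both other groups. Il10ra rose (1.53 ± 0.28, adjusted p = 0.0031) and was lower with PZH (-1.19 ± 0.32, adjusted p = 0.039), the latter call being lost without M13 (0.10), M24 (0.14), G27 (0.055), G28 (0.073) or G42 (0.078).

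Il10 itself had 2, 3 and 8 counts in the normal rats, 0, 4 and 2 in the DEN rats and 4, 5 and 0 in the DEN plus PZH rats. The groups overlapped at a level near the floor, and no difference was detectable at this depth. Il10rb, the chain shared by the receptors for interleukins 10 and 22, rose from 12.5 to 14.9 CPM in the normal rats to 18.8 to 28.7 CPM in the DEN rats (0.85 ± 0.21, adjusted p = 0.011). With PZH it stood at 14.0 to 17.1 CPM (-0.64 ± 0.21, adjusted p = 0.067).

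Il22ra1, the epithelial chain that binds interleukin 22, had no read in any normal rat, 52, 30 and 149 counts in M13, M17 and M24 and 15, 24 and 34 in G27, G28 and G42. The DEN mean was at least 13.8-fold higher than the normal floor (adjusted p = 0.0029), or at least 7.75-fold without M24, and the DEN plus PZH mean at least 6.62-fold higher. The DEN and DEN plus PZH groups overlapped (-1.08 ± 0.65, adjusted p = 0.28). Il22 had no reads, and its soluble decoy receptor Il22ra2 had at most 5 counts in any rat.

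Interleukin 17 receptors are heteromers around Il17ra. Il17re, the chain that binds the epithelial cytokine interleukin 17C, had 2, 0 and 4 counts in the normal rats, 357, 131 and 223 in the DEN rats and 55, 56 and 41 in the DEN plus PZH rats, or 0.154 ± 0.153, 10.3 ± 4.43 and 3.05 ± 0.784 CPM. The groups did not overlap. Il17re rose with DEN (5.98 ± 0.65, adjusted p = 0.00032), was lower with PZH than with DEN alone (-1.74 ± 0.37, adjusted p = 0.019) and stayed above normal with PZH (4.21 ± 0.69, adjusted p = 0.012). The middle call was lost without M13 (0.079), M24 (0.053) or G42 (0.059), and the last without N1 or G28. With under 10 counts in every normal rat, Il17re could enter both tests against normal only by differing. Its ligand Il17c had no reads.

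Il17rc is the neighbour of Il17re on chromosome 4, with 763 bases between them in the authors' file, and it went the other way. It was at 14.4 to 20.2 CPM in the normal rats and 8.46 to 11.7 CPM in the DEN rats (-0.79 ± 0.22, adjusted p = 0.018, with the sign turning under library totals and the call lost without N1, N12 or M13). Il17rb, which binds interleukins 17B and 25, rose (1.47 ± 0.30, adjusted p = 0.0049), and so did Il17rd (2.70 ± 0.53, adjusted p = 0.0038), while Il17ra did not pass (-0.45 ± 0.20, adjusted p = 0.10, turning with library totals). None of these 4 passed with PZH. Among the ligands Il17a had 4 counts in M13 alone, Il17b had 7, 14 and 11 counts in the DEN rats, 8, 8 and 4 in the DEN plus PZH rats and none in the normal rats, and Il17d did not pass (1.25 ± 0.49, adjusted p = 0.066).

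In interleukin 17 signalling 5 genes were tested. Cebpb, a transcription factor of the acute phase response, fell with DEN (-1.99 ± 0.28, adjusted p = 0.00089) and was also lower than normal with PZH (-1.68, adjusted p = 0.010), and the adaptor Traf5 rose (1.54 ± 0.49, adjusted p = 0.032). No gene of this list passed between DEN plus PZH and DEN with edgeR and TMM scaling, where 1 was lower at an unadjusted p under 0.05 and DESeq2 called 1. Library totals put Cebpd (-1.80) and Traf3ip2 (-1.07) past the threshold there as lower, and Traf3ip2 past it as higher with DEN (1.43).

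Epithelial markers stood beside the epithelial receptors Il17re and Il22ra1, of which Il22ra1 did not pass in DEN plus PZH against DEN. All 5 cholangiocyte markers (Krt19, Krt7, Epcam, Sox9 and Cftr) rose with DEN, were lower with PZH than with DEN alone and were higher with PZH than in normal rats, and their summed level was 12.1 to 19.9 CPM in the normal, 193 to 632 CPM in the DEN and 78.2 to 94.2 CPM in the DEN plus PZH rats. Of 5 stellate cell markers 4 rose with DEN (Acta2, Col1a1, Des and Pdgfrb). The part of these cells in the receptor results was not tested, nor was that of hepatocytes, of whose 6 markers 5 fell with DEN and 4 were higher with PZH, in the Il6r, Il1r1, Il1rap and Il4r results.

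Interleukin 12 and interleukin 23 share the subunit Il12b, made by dendritic cells and macrophages. Il12b had 10, 4 and 8 counts in the normal rats, 2, 1 and 3 in the DEN rats and 29, 15 and 12 in the DEN plus PZH rats. The groups did not overlap. The DEN plus PZH mean was at least 7.82-fold higher than the DEN floor (adjusted p = 0.011, and 0.058 without M13), and the normal mean at least 4.31-fold higher than that floor, a difference left out of the main test by the filter. Il12a and Il23a, the subunits it pairs with, had at most 6 and 13 counts in any rat, and Il12rb2 passed in neither comparison (1.02 ± 0.52, adjusted p = 0.15, and -1.23 ± 0.42, adjusted p = 0.077).

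Myeloid markers stood beside Il12b and the IL-1 ligands as follows. Of 7 macrophage and Kupffer cell markers 3 fell with DEN (Clec4f, Marco and Vsig4, which mark resident Kupffer cells) and none rose with edgeR or DESeq2, 2 being higher at an unadjusted p under 0.05, and 3 others (Adgre1, Cd68 and Csf1r) were lower with PZH than with DEN alone, the summed level being 501 to 908, 418 to 542 and 237 to 557 CPM in the 3 groups. With library totals Adgre1, Cd68 and Csf1r passed as higher with DEN (1.45, 1.37 and 1.40), and the falls of Clec4f (-0.44) and Vsig4 (-0.70) were not called. All 4 tested neutrophil markers of 5 listed (Csf3r, Cxcr2, S100a8 and S100a9) rose with DEN and were lower with PZH, with summed levels of 1.91 to 2.26, 15.5 to 30.7 and 4.84 to 5.46 CPM. Their part in the Il1a, Il1b, Il1r2 and Il12b results was not tested.

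Il16, a T cell attractant stored as a precursor in lymphocytes, was the 1 ligand called higher in the DEN rats. It was at 4.22, 3.11 and 4.96 CPM in the normal rats, 9.73, 7.28 and 14.0 CPM in the DEN rats and 8.41, 9.81 and 5.70 CPM in the DEN plus PZH rats. The normal rats lay below all others, while the DEN and DEN plus PZH rats overlapped. Il16 rose with DEN (1.35 ± 0.31, adjusted p = 0.0085) and did not pass with PZH against DEN (-0.35 ± 0.31, adjusted p = 0.47, but 0.041 with library totals). The decoy Il13ra2 was at 1.95, 0 and 0.763 CPM in the normal rats, 3.48, 6.49 and 1.96 CPM in the DEN rats and 4.82, 7.66 and 4.56 CPM in the DEN plus PZH rats and passed in no comparison.

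The remaining tested members, Il3ra, Il7, Il13ra1, Il15, Il27ra, Il2rb, Il34 and Il36b, passed in no comparison they entered. Their log2 fold changes lay between -0.96 (Il36b) and 1.20 (Il27ra) in DEN against normal and between -1.28 (Il27ra) and 0.97 (Il36b) in DEN plus PZH against DEN. Of the low members that were left out of the tests, Il5ra, a chain of eosinophils, had 9, 16 and 14 counts and Il20ra, an epithelial chain, 5, 5 and 20 counts in the DEN rats, with none in any normal rat. Without the filter on low counts 7 further members passed in DEN against normal, Il5ra, Il1r2, Il17b, Il20ra, Il6 and Il20rb higher and Il12b lower.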

How the data were processed

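Liver mRNA of 9 rats was measured by RNA-seq. The authors deposited 1 table with read counts and FPKM per gene and rat, and the submitters' processing notes name fastp, HISAT2 2.1.0, StringTie 1.3.3b and edgeR 3.30.3; genome build and strand are not given in the sources used here. FPKM served to compare levels between genes and is also given by group. It was not scaled with TMM factors, and no difference in FPKM between groups was tested. The table's group means, fold changes, P-values and Q-values are the authors' own comparisons and were not used.

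Each comparison was fitted on its 6 rats with edgeR 4.0.16 in R 4.3.3 (filterByExpr, TMM factors, glmQLFit and glmQLFTest), with Benjamini-Hochberg adjustment over all genes tested and a threshold of 0.05. CPM are deposited counts over TMM-scaled totals of all 9 rats. A fold against a group at or under 3 counts per rat is a lower bound against that floor. Alternatives were DESeq2 1.42.0, edgeR's exact test, library totals, no filter, at least 10 counts in every rat, all 9 rats in one fit, a study fold threshold lowered to 1 on the log2 scale, and dropping single rats, which for the lower bounds was chosen after seeing the data. The scripts were tested on simulated data.

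Members were taken by symbol. Values were to be given rat by rat for called members, at most 8 per role by smallest p, and for Il1a, Il1b, Il1rn, Il1r1, Il1r2, Il6, Il6r, Il6st, Il10, Il18, Il33, Il1rl1 and Il17re, and at most 4 genes per list. Other members named, and the read ratios, were chosen after their values were seen. The members and lists were chosen with earlier results of these data known. Some genes of the lists are not reported here, so the list of cytokine partners is given without counts and 1 marker list is left out.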

Additional observations from a re-analysis of the deposited data

How the results depend on the processing

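With library totals in place of TMM factors the count of called members went from 12 to 24 in DEN plus PZH against DEN (4 higher and 20 lower) and from 1 to 3 in DEN plus PZH against normal, and at the thresholds of the study from 8 to 14 in DEN against normal (13 higher and 1 lower). At those thresholds 2 members passed in DEN plus PZH against DEN under both scalings, with 0 in common. The sign turned with library totals for Il6st in DEN against normal (0.34) and in DEN plus PZH against DEN (-0.28) and for Il33 in the latter (-0.19). With at least 10 counts in every rat, the counts at the study thresholds were 3 in DEN against normal and 1 in DEN plus PZH against DEN, and 0 members were called in DEN plus PZH against normal, 8 having an unadjusted p under 0.05. A fold threshold of 1 gave 4 in DEN plus PZH against DEN. In DEN plus PZH against normal DESeq2 called 5, the exact test 6, no filter 3 and all 9 rats in one fit 4. Leaving out 1 rat gave 5 to 10 members at the study thresholds in DEN against normal, 3 to 17 called and 0 to 3 at those thresholds in DEN plus PZH against DEN, and 0 to 6 called in DEN plus PZH against normal. The cause was not tested. In DEN against normal the count of called members was 17 to 31 under all alternatives, and 17 of the 32 fold changes examined gene by gene changed their call in at least 1 alternative. No paired analysis was possible because the rat numbers differ between the groups. Depth limits the 37 members with no or too few reads to be tested.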
